A study of Mus musculus with 11 samples.

Results

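The semaphorin, plexin, ephrin, Eph, Slit, Robo, netrin and Unc5 genes were examined in pooled mouse hearts at embryonic day 9.5. Members were all genes whose single symbol on the array belongs to one of these families by name, with the brightest probe set, by mean log2 signal, standing for each gene. The rule found 68 of 18193 genes, with 145 probe sets between them. Of the 68, 65 encode guidance proteins. The other 3 match the symbol rule without encoding guidance proteins: Unc50 and Unc5cl, which are not netrin receptors, and Plxna4os1, an RNA from the opposite strand of a plexin locus. They were kept in every count.

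The genotypes were measured on 11 one-colour arrays, 1 array per sample. The 3 control arrays came from hearts with 1 floxed and 1 wild-type Gata4 allele and both Nkx2-5 alleles intact. The 3 double heterozygous arrays came from hearts with 1 floxed and 1 wild-type Gata4 allele and Cre in 1 Nkx2-5 allele. The 5 arrays labelled conditional knockout (CKO) came from hearts with both Gata4 alleles floxed and Cre in 1 Nkx2-5 allele. Every group therefore carried at least 1 floxed Gata4 allele, and both groups with Cre carried 1 Nkx2-5 allele fewer than the controls. Cre is made in cells that use the Nkx2-5 locus, mainly cardiac progenitors and their myocardium, and cells of the pooled hearts that never use it keep their floxed alleles. The labels do not say whether the replicates came from separate pools, so a p-value here weighs a difference only against the scatter of these arrays, which may be purely technical. The number of arrays limits the precision.

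Guidance proteins were first described as cues that steer growing axons, and the developing heart and its vessels use the same families. Class 3 semaphorins are secreted and act through neuropilins and plexins, and membrane-bound semaphorins bind plexins directly. Ephrins are ligands tethered to the cell surface that bind Eph receptor tyrosine kinases on neighbouring cells, with ephrin-B2 and EphB4 known for arterial and venous endothelium. Slits are secreted ligands of Robo receptors, and netrins bind Dcc, neogenin and the Unc5 receptors. In the early heart these pathways are known from outflow tract septation, endocardial and vascular patterning, the migration of neural crest cells and the formation of the pericardial cavity.

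All values are log2(intensity + 16), on which a deposited intensity of 0 reads 4. Differences are in log2 units, and a probe set was called at a Benjamini-Hochberg adjusted p under 0.05 over all 45037 probe sets in limma. Mean deposited intensity was between 166.4 and 175.6 in 10 arrays and 117.2 in CKO-labelled replicate 3. The log2 ratio of the 3' to the 5' actin control signal was between 0.295 and 0.450 in 10 arrays and 1.001 in CKO-labelled replicate 2. The 8 myocardial markers averaged 12.29 to 12.45 in every array, and 1 of them, Myh7, was called 0.27 higher in the CKO-labelled than in the control arrays (adjusted p = 0.0155, limma). The first Gata4 probe set was 0.45 higher in the CKO-labelled than in the control arrays (adjusted p = 0.0323, limma), and the second differed by 0.08 (adjusted p = 0.958, limma). In the second, CKO-labelled replicate 2 read 6.43, against 8.27 to 8.81 in the other CKO-labelled arrays and 7.99 to 8.16 in the controls, and without it the difference was 0.50 (adjusted p = 0.0569, limma). The double heterozygous arrays were also above all controls on both probe sets, with means 0.33 and 0.40 higher, not called. The CKO-labelled arrays differed from them by 0.12 and -0.32 (adjusted p = 0.669 and 0.781, limma). No source used here says whether either probe set lies in the deleted part of Gata4, so these values do not check the second floxed allele, and the group is called CKO-labelled throughout. Nkx2-5 read 9.84 to 9.94 in the control arrays, 9.38 to 9.55 in the double heterozygous and 8.79 to 9.65 in the CKO-labelled arrays, so every array labelled with Cre in this locus was below every control. The CKO-labelled difference, -0.53, was not called (adjusted p = 0.0978, limma), and it was called without CKO-labelled replicate 2 (-0.60, adjusted p = 0.0478, limma) or replicate 3 (-0.61, adjusted p = 0.0416, limma). Of the members, 14 had a mean level under 5, close to the floor, and there fold changes depend most on the added 16. In tissue RNA, fewer cells of a type and less RNA per cell cannot be told apart.

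Promoters of 4 members that carry the results below are shown because GATA4 and Nkx2-5 are DNA-binding factors and these genes were the 4 with the smallest p between CKO-labelled and control arrays. Each sequence is from RefSeq on GRCm38.p6, runs 5′ to 3′ along the strand of the gene, and covers 250 bases before and 50 bases from the start of transcription. The single capital after the first 250 bases is the start site, and the other capitals in Unc5b mark a GATA motif on the strand of the gene, 157 to 152 bases before the start. Unc5b lies on the minus strand at chr10:60831532-60831831, Slit3 on the plus strand at chr11:35121206-35121505, Sema3g on the plus strand at chr14:31217623-31217922 and Plxnc1 on the minus strand at chr10:94944796-94945095.
Unc5b: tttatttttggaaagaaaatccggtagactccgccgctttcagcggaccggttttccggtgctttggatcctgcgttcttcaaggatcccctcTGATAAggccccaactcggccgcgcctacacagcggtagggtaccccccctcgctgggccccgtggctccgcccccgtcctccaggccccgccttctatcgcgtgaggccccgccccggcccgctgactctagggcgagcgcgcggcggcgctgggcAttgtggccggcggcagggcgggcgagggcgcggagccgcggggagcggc
Slit3: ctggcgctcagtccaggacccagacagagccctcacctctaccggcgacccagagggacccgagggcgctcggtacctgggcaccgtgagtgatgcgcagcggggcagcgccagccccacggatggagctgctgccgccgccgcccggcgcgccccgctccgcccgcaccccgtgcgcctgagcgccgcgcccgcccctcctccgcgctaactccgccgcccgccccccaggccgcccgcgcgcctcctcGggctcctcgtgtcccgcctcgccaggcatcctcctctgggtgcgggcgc
Sema3g: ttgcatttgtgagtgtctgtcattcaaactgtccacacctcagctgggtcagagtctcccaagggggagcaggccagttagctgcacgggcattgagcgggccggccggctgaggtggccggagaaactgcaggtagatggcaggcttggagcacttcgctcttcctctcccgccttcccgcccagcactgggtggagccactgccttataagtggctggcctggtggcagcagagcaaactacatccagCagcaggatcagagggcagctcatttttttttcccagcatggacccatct
Plxnc1: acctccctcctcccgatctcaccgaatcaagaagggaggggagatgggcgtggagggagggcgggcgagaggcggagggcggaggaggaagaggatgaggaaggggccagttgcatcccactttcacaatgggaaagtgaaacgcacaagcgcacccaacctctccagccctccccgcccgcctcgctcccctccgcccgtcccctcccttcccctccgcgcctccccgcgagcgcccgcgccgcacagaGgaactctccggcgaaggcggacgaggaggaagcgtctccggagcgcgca

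A GATA motif, searched on both strands as the word AGATAA or its variant AGATAG and likewise TGATAA or its variant TGATAG, was present in the windows of 10 of the 58 members with a promoter in the table (17.2%), against 33.04% of 27025 genes and 29.8% of 32851 promoters of the same length. The letters TNAAGTG, searched on both strands as an Nkx2-5 motif, were present in 8 of the 58 (13.8%), against 13.1% of genes and 11.5% of promoters. Neither motif contains the other. Of the 7 members called in any comparison, 1 held the GATA motif (Unc5b) and 0 held TNAAGTG. A match is a description and not a binding site, and the absence of these letters from a 300-base window says nothing of the factors.

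Between CKO-labelled and control hearts, 5 guidance genes rose and 1 fell. Slit3, a secreted Robo ligand, Sema3g, a secreted semaphorin made by endothelium, Unc5b, a netrin receptor of vascular endothelium, Epha4, an Eph receptor that binds ephrins of both classes, and Efna1, a ligand of EphA receptors, were higher by 0.49 to 1.16. Plxnc1, the receptor of Sema7a, was lower by 0.79. These 6 calls are 8.82% of the members, against 1.40% of all probe sets and 2.09% of genes at 1 probe set per gene. Higher calls took 1.24% and lower calls 0.852% of all genes. At an unadjusted p under 0.05 there were 22 members (32.4%), against 15.5% of genes. Means were higher in 43 members and lower in 25, with a median difference of 0.08 against -0.02 over all genes. Single arrays moved this median, to 0.13 without CKO-labelled replicate 1 and 0.04 without replicate 5. The arrays of the groups did not overlap in 19 members, or 27.9% against 12.3% of genes. Of these 12 were higher and 7 lower, where 4.70% and 7.59% of genes were.

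**Figure D1:**
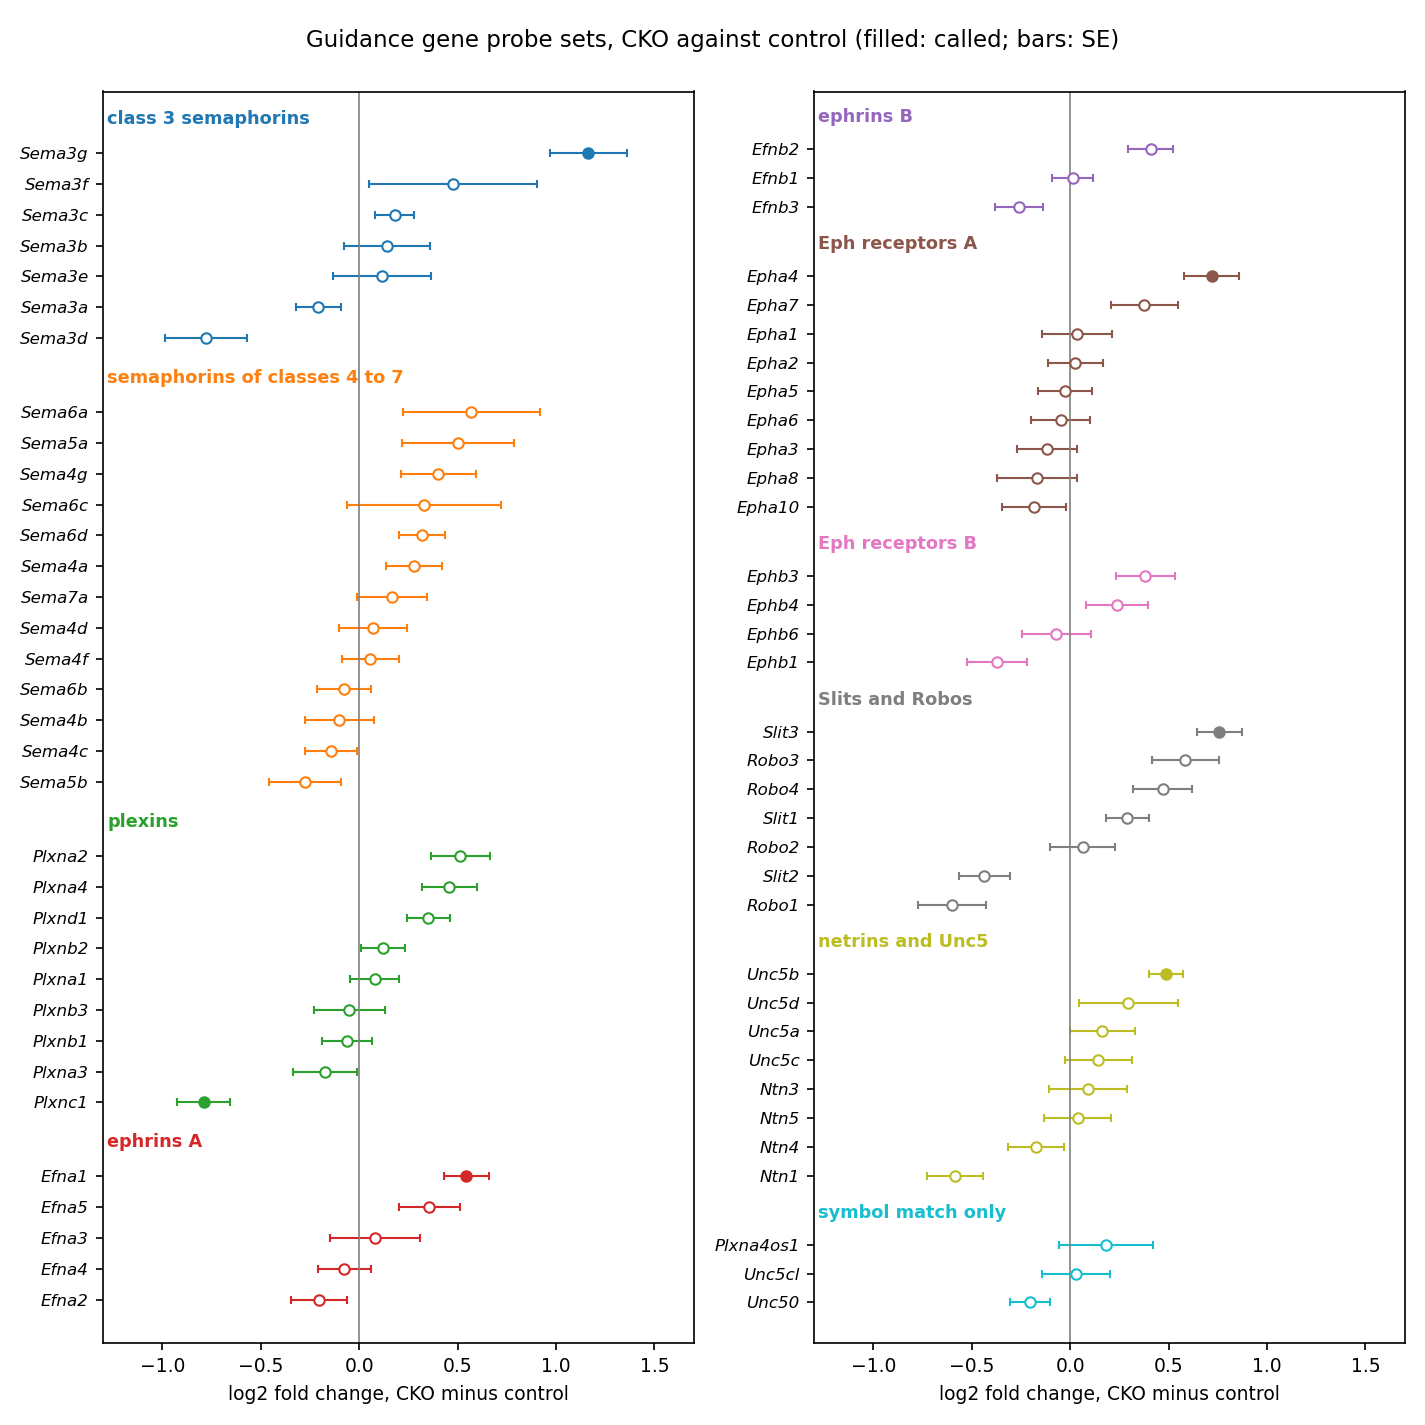
Difference between CKO-labelled and control arrays for each of the 68 members, by family, on the log2(intensity + 16) scale; points are differences of group means, bars are standard errors, and filled points were called. The 6 filled points are Sema3g, Slit3, Epha4, Efna1 and Unc5b to the right of 0 and Plxnc1 to the left.

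The Slits and Robos held 1 call among 7 members. Slit3 read 7.10, 7.16 and 6.98 in the control arrays, 7.25, 7.42 and 7.32 in the double heterozygous arrays and 7.67, 8.05, 7.72, 7.96 and 7.79 in the CKO-labelled arrays. The 3 groups did not overlap, and the double heterozygous arrays lay between the others. Slit3 was 1.69-fold higher in the CKO-labelled than in the control arrays, a difference of 0.76 (SE 0.114, n = 5 and 3, adjusted p = 0.00331, limma). Against the double heterozygous arrays it was 0.51 higher and not called (adjusted p = 0.0784, limma).

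Slit2, a second ligand of the same receptors, had a mean difference of the opposite sign, -0.44, and was not called (adjusted p = 0.121, limma). It read 7.62, 7.71 and 7.72 in the control arrays, 7.40, 7.51 and 7.29 in the double heterozygous arrays and 7.14, 7.37, 7.07, 7.59 and 7.09 in the CKO-labelled arrays. All control arrays were above all others. Slit1 differed by 0.29 (adjusted p = 0.250, limma).

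Among the receptors of the Slits, Robo1 read 7.44, 7.69 and 7.71 in the control arrays, 6.91, 6.87 and 7.34 in the double heterozygous arrays and 6.81, 6.73, 6.82, 7.47 and 7.22 in the CKO-labelled arrays. The double heterozygous arrays were all below the controls, and 1 CKO-labelled array, replicate 4, reached into the control range. The difference from control was -0.60 (SE 0.173, adjusted p = 0.113, limma) in the CKO-labelled and -0.57 in the double heterozygous arrays. Without CKO-labelled replicate 4 the first was -0.72 and was called (adjusted p = 0.0373, limma). The other 2 probe sets of Robo1 differed by -0.28 and 0.03, and with its probe sets averaged the difference was -0.28 (adjusted p = 0.317, limma). Robo3, a divergent Robo known from commissural neurons, differed by 0.58 (adjusted p = 0.118, limma) and Robo4, a Robo of endothelium, by 0.47 (adjusted p = 0.154, limma). Robo2 differed by 0.06. In Slit3, Slit1, Robo3 and Robo4 every CKO-labelled array was above every control array, as in 4.70% of all genes. The second probe sets of Slit1 and Robo3 went the other way, at -0.12 and -0.29. Over the family, 5 means were higher and 2 lower.

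The class 3 semaphorins held 1 call among 7 members. Sema3g read 5.39, 5.27 and 5.29 in the control arrays, 5.12, 5.75 and 5.62 in the double heterozygous arrays and 6.57, 6.95, 5.98, 6.41 and 6.49 in the CKO-labelled arrays. Every CKO-labelled array was above every array of the other groups, and the controls were tight. It was 2.24-fold higher than in the control arrays, a difference of 1.16 (SE 0.197, adjusted p = 0.00753, limma). This level is low, so the size depends on the added constant: it was 1.57 with an offset of 1 and 0.65 with an offset of 64, and called with both.

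Sema3d, a secreted semaphorin known from the venous pole and coronary endothelium, read 6.17, 6.37 and 6.17 in the control arrays, 5.81, 6.02 and 5.69 in the double heterozygous arrays and 5.25, 4.88, 5.52, 6.05 and 5.57 in the CKO-labelled arrays. All control arrays were above all others, and the CKO-labelled arrays were spread widely. The difference from control was -0.78 (SE 0.208, adjusted p = 0.0863, limma), and it was -0.93 and called (adjusted p = 0.0237, limma) without CKO-labelled replicate 4. Sema3a, a repulsive cue for axons and neural crest, differed by -0.21 (adjusted p = 0.474, limma). Sema3f differed by 0.48 (adjusted p = 0.706, limma), with the highest array at 9.78 in CKO-labelled replicate 3 and a difference of 0.08 without it. Over the class, 5 means were higher and 2 lower.

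None of the 13 semaphorins of classes 4 to 7 was called by limma in this comparison. The smallest p-values were those of Sema6d, a transmembrane semaphorin known from ventricular trabeculation, at 0.32 (SE 0.117, adjusted p = 0.228, limma), and Sema4g at 0.40 (SE 0.191, adjusted p = 0.386, limma). Only 2 of the 4 probe sets of Sema6d were higher, with differences from -0.18 to 0.32. Of the 13 means 9 were higher and 4 lower, with a median of 0.17.

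The plexins, receptors of the semaphorins, held 1 call among 9 members. Plxnc1 read 7.16, 6.99 and 6.93 in the control arrays, 6.53, 6.78 and 6.41 in the double heterozygous arrays and 5.98, 6.25, 6.24, 6.30 and 6.43 in the CKO-labelled arrays. All control arrays were above all others, and the CKO-labelled and double heterozygous arrays overlapped only through CKO-labelled replicate 5 and double heterozygous replicate 3. It was 1.73-fold lower than in the control arrays, a difference of -0.79 (SE 0.135, adjusted p = 0.00798, limma). Its 6 probe sets did not all follow: -0.79 and -0.70 were called, -0.83 was not (adjusted p = 0.0550, limma), and the others read -0.29, -0.08 and 0.20. With the mean of its probe sets in place of the brightest the difference was -0.41 (adjusted p = 0.0588, limma). Sema7a, the ligand of Plxnc1, differed by 0.17 (adjusted p = 0.760, limma).

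Plxna2, a co-receptor for class 3 semaphorins in neural crest, differed by 0.51 (SE 0.150, adjusted p = 0.118, limma). Plxnd1, the endothelial receptor of Sema3e, differed by 0.35 (adjusted p = 0.142, limma). Plxna4, a further co-receptor, differed by 0.46 (adjusted p = 0.135, limma), and its second probe set by -0.04. In Plxna2 and Plxnd1 every CKO-labelled array was above every control array. Sema3e itself differed by 0.12 (adjusted p = 0.898, limma). Over the plexins, 5 means were higher and 4 lower.

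The A and B ephrins held 1 call among 8 members. Efna1, a ligand of EphA receptors known from endothelium, read 6.99, 6.88 and 6.996 in the control arrays, 6.86, 7.05 and 7.07 in the double heterozygous arrays and 7.51, 7.73, 7.33, 7.40 and 7.53 in the CKO-labelled arrays. The CKO-labelled arrays were all above the others, and the other groups overlapped each other. Efna1 was 1.46-fold higher than in the control arrays, a difference of 0.54 (SE 0.115, adjusted p = 0.0299, limma). Its second probe set differed by 0.30 (adjusted p = 0.359, limma).

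Efnb2, the ligand of arterial endothelium, read 8.45, 8.47 and 8.60 in the control arrays, 8.61, 8.56 and 8.84 in the double heterozygous arrays and 8.79, 8.74, 8.84, 9.03 and 9.20 in the CKO-labelled arrays. CKO-labelled and control arrays did not overlap. The difference was 0.41 (SE 0.113, adjusted p = 0.0972, limma), and a second of its 4 probe sets was called at 0.58 (adjusted p = 0.0420, limma). The other probe sets differed by 0.0017 and -0.08, and with all 4 averaged the difference was 0.23 (adjusted p = 0.303, limma). Without CKO-labelled replicate 2 the representing probe set was at 0.45 and called (adjusted p = 0.0449, limma). Efnb3 differed by -0.26 (SE 0.123, adjusted p = 0.385, limma), Efna5 by 0.36 (SE 0.154, adjusted p = 0.326, limma) and Efnb1 by 0.01. Means were higher in 3 of the 5 A ephrins and in 2 of the 3 B ephrins.

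The A and B Eph receptors held 1 call among 13 members. Epha4 read 6.73, 6.94 and 6.66 in the control arrays, 7.18, 7.01 and 7.17 in the double heterozygous arrays and 7.49, 7.61, 7.08, 7.77 and 7.51 in the CKO-labelled arrays. All CKO-labelled arrays were above the controls, and only replicate 3 overlapped the double heterozygous range. Epha4 was 1.65-fold higher than in the control arrays, a difference of 0.72 (SE 0.142, adjusted p = 0.0212, limma). All 5 of its probe sets were higher, and 4 were called, at 0.72, 0.78, 0.64 and 0.83.

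Epha7 differed by 0.38 (SE 0.170, adjusted p = 0.355, limma) on its brightest probe set and by -0.44, -0.16 and -0.19 on the others. Ephb3, a receptor of the B ephrins, differed by 0.38 (SE 0.150, adjusted p = 0.269, limma) and Ephb1 by -0.37 (SE 0.152, adjusted p = 0.300, limma). Ephb4, the receptor of venous endothelium that binds Efnb2, differed by 0.24 (adjusted p = 0.573, limma). Means were higher in 4 of the 9 A receptors and in 2 of the 4 B receptors.

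The netrins and Unc5 receptors held 1 call among 8 members. Unc5b read 8.53, 8.66 and 8.63 in the control arrays, 8.73, 8.64 and 8.75 in the double heterozygous arrays and 9.02, 9.18, 8.96, 9.16 and 9.14 in the CKO-labelled arrays. The CKO-labelled arrays were all above the others, which overlapped each other. Unc5b was 1.40-fold higher than in the control arrays, a difference of 0.49 (SE 0.0844, adjusted p = 0.00887, limma). Its second probe set differed by 0.47 (adjusted p = 0.0960, limma). Unc5a, Unc5c and Unc5d differed by 0.16, 0.14 and 0.30, with adjusted p of at least 0.684 in limma.

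Ntn1, a secreted ligand of Dcc and the Unc5 receptors, read 8.06, 8.12 and 8.37 in the control arrays, 7.82, 7.98 and 7.68 in the double heterozygous arrays and 7.54, 8.06, 7.42, 7.49 and 7.48 in the CKO-labelled arrays. CKO-labelled replicate 2 was high against its group and just below the lowest control. The difference from control was -0.58 (SE 0.142, adjusted p = 0.0588, limma), and it was -0.70 and called (adjusted p = 0.00308, limma) without that array. Ntn1 and Unc5b are thus a ligand and a receptor whose means differed in opposite directions, with the ligand not called. Over the family, 6 means were higher and 2 lower. The symbol matches Unc50, Unc5cl and Plxna4os1 differed by -0.20, 0.03 and 0.18 and were not called by limma.

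**Figure D2:**
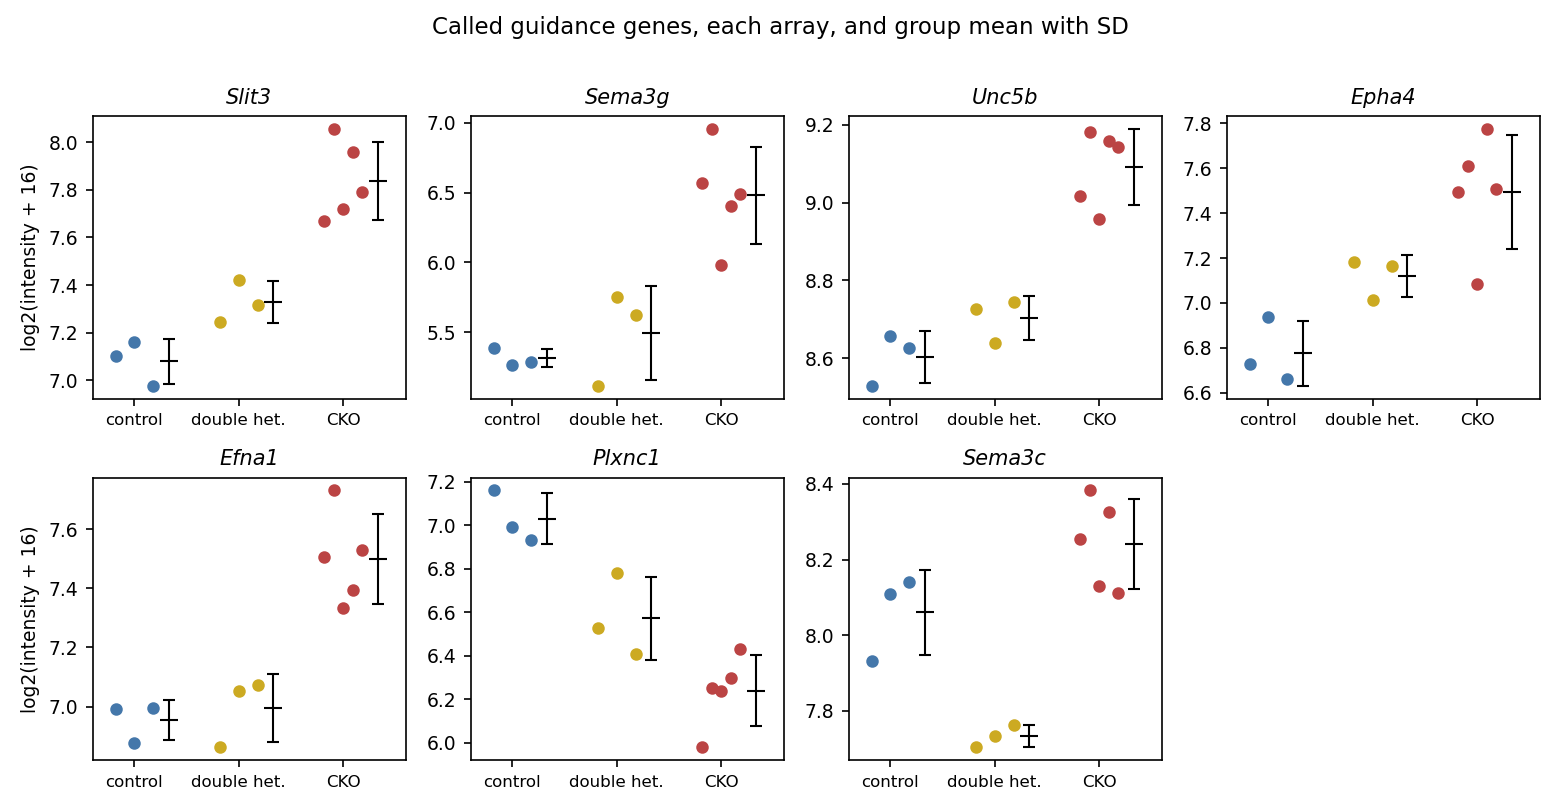
Signal of the 7 members called in any comparison, on the log2(intensity + 16) scale, in 3 control, 3 double heterozygous and 5 CKO-labelled arrays; points are arrays and black bars are the group mean with SD. In Slit3, Sema3g, Unc5b and Efna1 all CKO-labelled arrays sit above all other arrays.

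**Figure D3:**
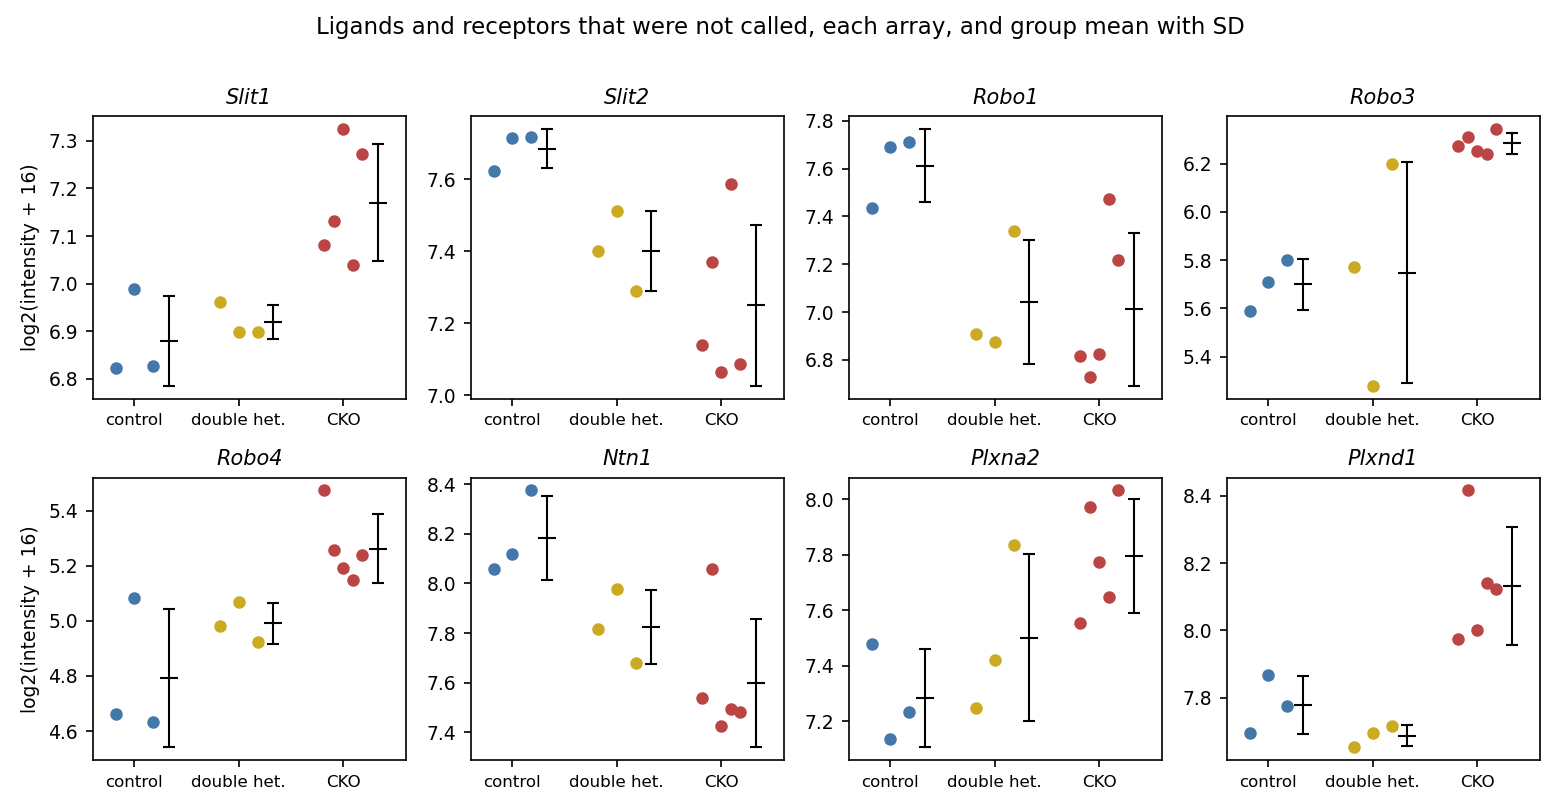
Signal of 8 ligands and receptors that were not called, on the log2(intensity + 16) scale, drawn as points per array with the group mean and SD. Slit2, Robo1 and Ntn1 have lower CKO-labelled than control means, and Slit1, Robo3, Robo4, Plxna2 and Plxnd1 higher ones.

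These calls, like those over all probe sets, depended on how the arrays were brought to 1 scale, and fewer remained whichever control array was left out. With no scaling between arrays 0 members were called, where 92 of all probe sets were called. With the arrays centred on their medians 3 were called, 1 higher (Sema3g) and 2 lower (Plxnc1 and Robo1), and the share of higher calls over all probe sets was 38.6% in place of 59.3% (48.9% with no scaling). Leaving out control replicate 1, 2 or 3 left 2 calls each time. Over all probe sets it left 168, 181 and 188 calls in place of 631. Without control replicate 1 Unc5b, Epha4, Efna1 and Plxnc1 were no longer called, at 0.45, 0.69, 0.56 and -0.72. Without control replicate 2 Sema3g, Epha4, Efna1 and Plxnc1 were no longer called, at 1.14, 0.80, 0.51 and -0.81. Without control replicate 3 Sema3g, Unc5b, Epha4 and Efna1 were no longer called, at 1.15, 0.50, 0.66 and 0.57. Leaving out CKO-labelled replicate 5 ended the calls of Epha4 and Efna1, at 0.72 and 0.54, and leaving out double heterozygous replicate 1 that of Efna1, at 0.54. Slit3 was called whichever array was left out.

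Between CKO-labelled and double heterozygous hearts, which differ in the second floxed Gata4 allele, 2 class 3 semaphorins were higher: Sema3c and Sema3g. These 2 calls are 2.94% of the members, against 0.349% of all probe sets and 0.550% of genes. Higher calls took 0.286% of probe sets and 0.445% of genes, and lower calls 0.0622% and 0.104%, with 0 members called lower by limma. Unadjusted p was under 0.05 in 15 members (22.1%), against 13.3% of genes. Means were higher in 41 members and lower in 27, with a median of 0.08 against -0.01 over all genes. The median was 0.14 without double heterozygous replicate 3 and 0.05 without CKO-labelled replicate 2. The arrays did not overlap in 14 members, or 20.6% against 9.18% of genes. Of these 12 were higher and 2 lower, where 3.64% and 5.54% of genes were. This comparison uses the same CKO-labelled arrays as the one above, so the values are given side by side and not as repeated evidence.

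Sema3c, a secreted semaphorin known for guiding neural crest cells into the outflow tract, read 7.93, 8.11 and 8.14 in the control arrays, 7.70, 7.73 and 7.76 in the double heterozygous arrays and 8.25, 8.38, 8.13, 8.32 and 8.11 in the CKO-labelled arrays. The double heterozygous arrays were below all others, and the CKO-labelled and control arrays overlapped. Sema3c was 0.51 higher in the CKO-labelled than in the double heterozygous arrays (SE 0.0983, adjusted p = 0.0391, limma) and 0.18 higher than in the controls (adjusted p = 0.470, limma). Its second, dimmer probe set differed by -0.16 from the double heterozygous arrays. Sema3g was 0.98 higher (SE 0.197, adjusted p = 0.0488, limma).

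Members with the next smallest p were not called. Unc5b differed by 0.39 (adjusted p = 0.0674, limma), Slit3 by 0.51 and Efna1 by 0.50 (adjusted p = 0.0844, limma). Plxnd1 differed by 0.44 (SE 0.109, adjusted p = 0.112, limma) and Robo3 by 0.54 (SE 0.171, adjusted p = 0.221, limma). The second probe set of Robo3 differed by -0.13. Further members of each family were Epha4 at 0.37, Epha6 at -0.39, Ephb4 at 0.33, Ephb3 at 0.27, Efnb2 at 0.25, Efnb1 at 0.19, Efna4 at -0.26, Sema6d at 0.33, Sema4a at 0.35, Ntn1 at -0.23 and Plxnc1 at -0.33. Their adjusted p was at least 0.272 in limma. Without CKO-labelled replicate 3, the array with the low mean intensity, 5 members were called: Sema3c at 0.53, Sema3g at 1.12, Slit3 at 0.54, Unc5b at 0.42 and Efna1 at 0.55. Calls over all probe sets also rose then, from 157 to 415. Leaving out CKO-labelled replicate 2 left 1 call, Sema3c at 0.47, and leaving out any other single array left 0. Over all probe sets these runs called 206 and 15 to 251. Over the arrays left out 1 at a time Sema3c lay between 0.47 and 0.54 and Sema3g between 0.79 and 1.12.

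Double heterozygous and control hearts differ by Cre in 1 Nkx2-5 allele and by the deletion it can make in 1 Gata4 allele. Here 0 members were called by limma, as were 0 of all probe sets, a background of 0%. Unadjusted p was under 0.05 in 5 members (7.35%), against 2.92% of genes, and a plain one-way analysis also called 0. The largest differences were those of Robo1 at -0.57, Plxnc1 at -0.46 and Sema3d at -0.39. The other members with the smallest p in their families were Sema3c at -0.33, Ntn1 at -0.36, Ntn4 at -0.29, Slit2 at -0.28, Efnb3 at -0.26, Efnb1 at -0.17, Ephb1 at -0.23, Sema5b at -0.36, Epha4 at 0.35, Epha6 at 0.35, Plxna4 at 0.24, Sema7a at 0.23, Efna4 at 0.19, Efna5 at 0.18 and Ephb3 at 0.11. The arrays did not overlap in 12 members, or 17.6% against 11.1% of genes. Of these 4 were higher and 8 lower, where 4.90% and 6.22% of genes were.

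An F-test over the 3 groups called 6 members, against 0.961% of all probe sets and 1.47% of genes: Slit3 (adjusted p = 0.00698), Sema3g (0.00960), Unc5b (0.0132), Plxnc1 (0.0230), Efna1 (0.0353) and Sema3c (0.0491), all by limma. In 6 of the 7 members called in any comparison the double heterozygous mean lay between the control and CKO-labelled means. The exception was Sema3c, which was lowest in the double heterozygous arrays. Members called for a wide gap between groups tend to show such an order by selection alone, so nothing is drawn from it. Of the 43 members with several probe sets, 21 had all probe sets on the same side of 0 between CKO-labelled and control arrays. Among the 77 probe sets not used to represent a member, 5 were called there, 4 higher and 1 lower, in Epha4, Efnb2 and Plxnc1.

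The other genes of these pathways, co-receptors and signalling proteins inside the cell, were measured for 66 of 70 listed genes. Between CKO-labelled and control arrays 1 rose and 1 fell. These calls are 3.03% of the list, near the 2.09% of all genes. Unadjusted p was under 0.05 in 15.2% of the list, against 15.5% of genes. Kdr, the VEGF receptor of endothelium, which also associates with semaphorin receptors, was 0.68 higher (SE 0.115, adjusted p = 0.00690, limma). Dpysl3, a collapsin response mediator that carries semaphorin signals to the cytoskeleton, was 0.64 lower, a difference of -0.64 (SE 0.102, adjusted p = 0.00496, limma). Means were higher in 30 and lower in 36, with a median of -0.02. The neuropilins Nrp1 and Nrp2, co-receptors of class 3 semaphorins, differed by 0.09 and 0.33 and the netrin receptors Dcc and Neo1 by 0.48 and -0.03. Dcc read 9.96 in CKO-labelled replicate 3, and without that array it differed by 0.20. None of these 4 genes was called by limma. Against the double heterozygous arrays Kdr was the 1 call, at 0.68 (adjusted p = 0.0180, limma), or 1.52% of the list against 0.550% of genes. Between double heterozygous and control arrays there were 0.

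Markers of other cell types moved with the groups, and their part in the results for the members was not tested. The 10 markers of endothelium and endocardium averaged 8.03 to 8.14 in the control, 8.03 to 8.13 in the double heterozygous and 8.24 to 8.37 in the CKO-labelled arrays. Of the 10 means 9 were higher in the CKO-labelled than in the control arrays. Kdr and Cdh5, at 0.68 and 0.63, were called higher, and Tek, at -0.65, was called lower. Among the called members, Sema3g, Unc5b and Efna1 are known from endothelium. The 5 cushion mesenchyme markers all had lower means than in the control arrays, with 0 called by limma. Against the double heterozygous arrays 1 of them, Has2, was called lower at -0.52 (adjusted p = 0.0431, limma). They averaged 7.11 to 7.23, 6.93 to 7.31 and 6.16 to 6.99 in the same order of groups. The 5 proepicardium markers averaged 7.20 to 7.44, 6.48 to 6.997 and 6.10 to 7.20, with Lrrn4 called lower than in the controls at -1.20. The 7 endoderm markers averaged 6.23 to 6.40, 6.34 to 6.60 and 6.44 to 6.95, with Krt8 and Krt18 called higher than in the controls at 0.71 and 0.85, and Krt8 also higher than in the double heterozygous arrays at 0.53. The 9 markers of neural crest and neural tube, tissues that use many members, averaged 5.17 to 5.24, 4.95 to 5.30 and 5.14 to 5.63, with 0 called by limma. The 6 markers of second heart field averaged 6.63 to 6.67, 6.67 to 6.82 and 6.68 to 6.84, and this average holds opposite calls against the controls, Isl1 at 1.38 and Tcf21 at -1.31. Isl1 was also called against the double heterozygous arrays, at 0.69. The 8 erythroid markers averaged 8.97 to 9.32, 9.04 to 9.42 and 9.06 to 9.67, with 0 called by limma. All 8 means were higher in the CKO-labelled than in the control arrays, with a median difference of 0.20. The 4 macrophage markers averaged 5.41 to 5.80, 5.29 to 5.71 and 5.34 to 5.70, with 0 called by limma. No marker was at a deposited 0 in all arrays of a group.

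**Figure D4:**
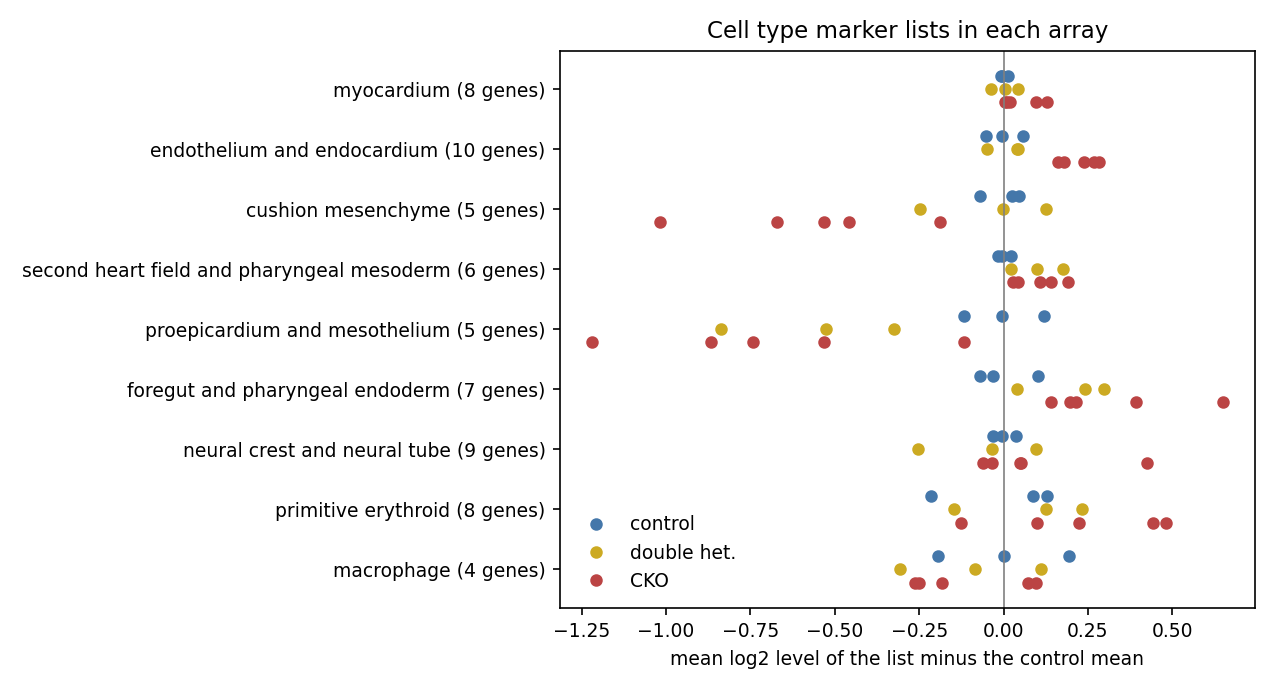
Mean log2(intensity + 16) of each cell type marker list in each array, minus the mean of the control arrays; points are arrays of the 3 groups. The 5 CKO-labelled arrays lie above all others for endothelium and endocardium and reach lowest for cushion mesenchyme and proepicardium.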

How the data were processed

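The deposited values are linear intensities that the authors summarised per probe set with PLIER, per the submitters' processing notes. No source used here gives its version, background correction or scaling. There were 45101 probe sets on 11 arrays, and 0 value columns were left unused. Here the linear intensities were quantile normalised over all arrays, then log2(intensity + 16) was taken and 64 control probe sets were removed. A linear model over 3 groups was fitted in limma 3.58.1 (R 4.3.3) with moderation along an intensity trend (15.07 degrees of freedom, 8 of them residual). Tests were two-sided, with Benjamini-Hochberg adjustment within each contrast and the F-test over 45037 probe sets. No intensity filter was used. Symbols came from the platform annotation; all 68 members matched RefSeq by Entrez identifier.

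Members and lists were chosen with earlier results of these data known. Values are given for every called member, for the 2 members per family with the smallest p in each contrast, and, per array, for called members and the next 2. Values of other members were added after they were seen. The script was tested on simulated data. Alternatives were other offsets, scalings, filters, probe set choices and models, and leaving out arrays.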

Additional observations from a re-analysis of the deposited data

Results flagged for a closer look

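In 9 of the 68 members (13.2%) 1 CKO-labelled array lay far from the other 4, against 7.73% of all 18193 genes. The criterion was a gap to the nearest array of more than 0.71 of the range of the group, which chance exceeds in about 1 group in 20. All 9 were in CKO-labelled replicate 2 (4 members) or replicate 3 (5 members). Over all genes those arrays stood apart in 2.11% and 3.50%, and the other 3 CKO-labelled arrays in 0.506% to 1.0004%. The actin ratio of replicate 2 and the mean intensity of replicate 3 also stood apart, and their part in these values was not tested.

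In replicate 3, Sema3f read 9.78 against 7.42 to 8.08 in the other CKO-labelled arrays, and Sema6c read 8.06 against 5.79 to 6.15. Efna3 read 6.33 against 5.07 to 5.35, and Plxna4os1 read 6.50 against 5.22 to 5.57. Sema4f was low there, at 4.59 against 4.88 to 4.96. In replicate 2, Ntn1 read 8.06 against 7.42 to 7.54, and Efnb3 read 8.17 against 7.62 to 7.74. Efnb1 read 7.66 against 7.40 to 7.47, and Robo2 was low at 4.38 against 4.84 to 4.94.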

How the results depend on the processing

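The count of members called between CKO-labelled and control arrays (6) was 0 with the deposited scale, 3 with median centring and 3 in a plain one-way analysis, and 2 to 9 when 1 array was left out. Between CKO-labelled and double heterozygous arrays (2) it was 1 with offsets of 1 and 64, 0 with the deposited scale, median centring, no intensity trend, a plain one-way analysis, or only the groups compared, 5 with only the brighter probe sets, 5 without CKO-labelled replicates 2 and 3 together, and 0 to 5 when 1 array was left out. For the F-test (6) it was 0 with the deposited scale, 2 with median centring, 3 with no trend, 2 in the plain analysis and 2 to 7 when 1 array was left out. Between double heterozygous and control arrays it was 0 in every alternative run. With probe sets of a gene averaged, Epha7 turned to -0.10 between CKO-labelled and control arrays and Sema5b to 0.060 between double heterozygous and control arrays. Over all probe sets, 631 calls between CKO-labelled and control arrays became 92 with the deposited scale, 368 with median centring and 278 with no trend. They became 168 to 898 when 1 array was left out. The 157 calls between CKO-labelled and double heterozygous arrays became 15 to 415 when 1 array was left out. Without CKO-labelled replicates 2 and 3 together they became 654. The share of higher calls between CKO-labelled and double heterozygous arrays was 82.2% and became 66.2% with median centring. The cause of these shifts was not tested.

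With the replicate number as a block, 4 members passed between the CKO-labelled arrays and the controls, 0 in either comparison with the double heterozygous arrays, and 1 in the F-test. Only the CKO-labelled group has replicates 4 and 5, so this model fits those arrays exactly and its differences rest on CKO-labelled replicates 1 to 3. A change of call therefore cannot be told apart from the loss of those arrays. Against the controls Slit3, Sema3g and Plxnc1 kept their calls, Unc5b, Epha4 and Efna1 lost theirs at 0.45, 0.62 and 0.57, and Robo1 gained one at -0.82. Against the double heterozygous arrays Sema3c and Sema3g lost theirs at 0.52 and 1.003. Arrays of the same number had deviations from their group means that correlated at -0.056 to 0.150 over 9 pairs, and arrays of other numbers at -0.135 to 0.183 over 30. Of the 9 arrays numbered 1 to 3, 6 correlated best with their own number among the arrays numbered 1 to 3 of the other groups, and 4 did when CKO-labelled replicates 4 and 5 were also compared. The labels name no shared litter or batch. The only same-number pair above 0.1 was double heterozygous replicate 3 with CKO-labelled replicate 3, at 0.150. Deviations from the means of so few arrays cannot exclude pairing. As the labels name no pairs, the samples were not treated as paired.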
